A study of Mus musculus with 8 samples.

Results

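The comparison described here is the response of the mouse dorsal hippocampus to object training in animals that carried a control vector, taken as the 2 trained against the 2 home-cage libraries of that vector, 4 libraries of the 8 in the series. The series tested ACSS2, an enzyme that makes acetyl-CoA from acetate, in spatial memory. It crossed a knockdown vector or a control vector with training or no training, with 2 libraries in each of the 4 groups. Male C57BL/6J mice aged 10 to 12 weeks were injected in the dorsal hippocampus with the adeno-associated virus AAV2/9.CMV.EGFP.polyA, which expresses EGFP from a CMV promoter and has no hairpin. The knockdown groups, used below only for comparison, received AAV2/9.U6.shACSS2.CMV.EGFP. After 3 weeks, trained mice (libraries eGFP.250 and eGFP.266, named by the end of the column name) were let loose among 3 objects in an arena, 3 times for 6 min each, and the hippocampus was taken 30 min after that. Untrained mice (eGFP.254 and eGFP.268) stayed in the home cage. Both control-vector groups thus share the surgery, the virus and EGFP, the whole dissected region was used whether cells were infected or not, and the sources used here do not say whether home-cage mice were handled. Whether each library is 1 animal or a pool is not stated, so p-values measure only the spread between these libraries, which may be technical.

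Neurons that fire strongly switch on immediate early genes within minutes, without needing new protein. Calcium and kinase signals act on factors already bound at these genes, CREB at cyclic AMP response elements and serum response factor at CArG boxes. The first products are mostly transcription factors such as Fos and the Egr family, together with effectors such as Arc that act at synapses, and a later set that includes growth factors and neuropeptides follows them. Hippocampal exploration of a new place is a standard way to evoke this programme.

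Values are normalized read counts, that is, reads in a gene divided by 1 factor per library, and are not scaled by gene length. Differences are log2(normalized read count + 1), trained minus untrained, with the standard error (SE) from limma, which was fitted to those 12658 of 24498 genes whose 4 libraries averaged 10 or more. The depth was 7552478 (eGFP.254) and 9863728 (eGFP.268) reads in genes without training, and 8275160 (eGFP.250) and 9402422 (eGFP.266) with it. A count of 0 allowed up to 3 reads, or at most 1.74 normalized read counts, for counting error only.

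Library eGFP.250 stood apart from the rest. It held 74 genes at 25 or more normalized read counts and at least 4 times their level in each of the other 3 libraries, while no other library held any. The pituitary hormone gene Gh stood at 956 in eGFP.250 and had 0 reads in the other 3. Pomc, the precursor of pituitary corticotropin, stood at 813 there against 1.74 to 2.39 elsewhere, and Prl (prolactin) at 85.8 against 0 reads. All 13 genes of a pituitary list, drawn up after these values were seen, had reads in eGFP.250, where they summed to 2058, against 1.77 to 3.83 in the others.
The hypothalamic hormone gene Trh (69.8 against 0.444 to 1.91) and the calcium-binding protein gene Calb2 (374 against 46.4 to 49.2) were also highest there.
Choroid plexus genes were split otherwise. Ttr, which encodes transthyretin and is the defining gene of that tissue, stood at 15080 in eGFP.254 and 133 in eGFP.268 before training, and at 57479 in eGFP.250 and 620 in eGFP.266 after it, so that 1 library of each group was high. The potassium channel gene Kcnj13 followed the same order (50.02 and 1.77, then 380 and 4.31). The first principal component, with 48.5% of the variance, placed eGFP.250 at 46.1 and the other 3 between -21.3 and -8.34. The trained pair correlated with a Spearman coefficient of 0.962 across genes and the untrained pair with 0.971, against 0.960 to 0.977 for pairs across groups. Hippocampal markers were present in all 4 libraries, with Prox1 (dentate granule cells) between 330 and 1005 and Slc17a7 (glutamatergic neurons) between 1641 and 2753, and 8 blood cell genes summed to at most 9.57. List medians are therefore given with and without eGFP.250, as are the differences of the main early genes.

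**Figure D1:**
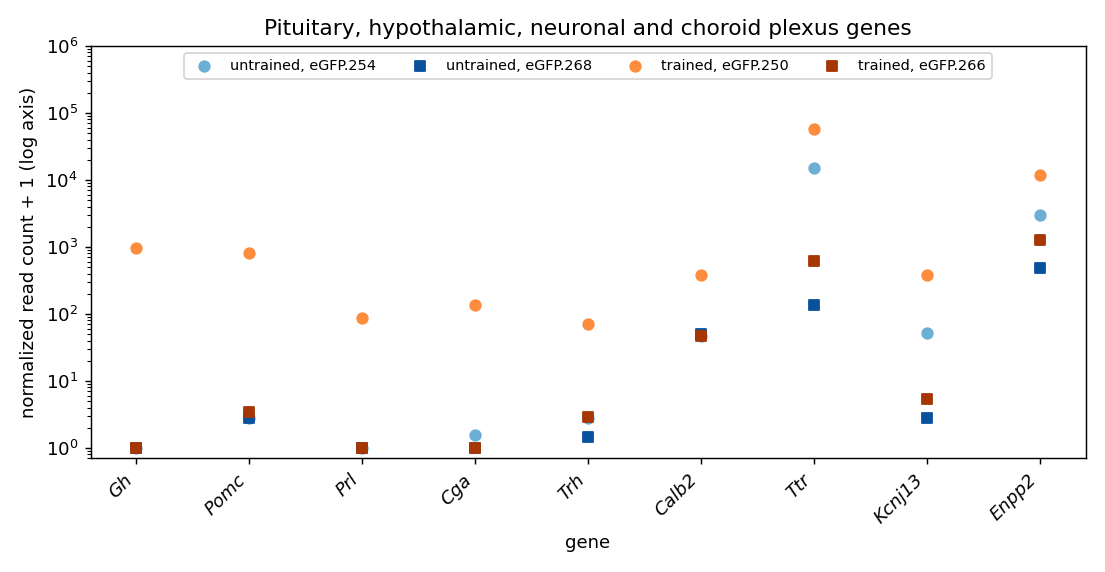
Normalized read counts plus 1, on a log axis, of 9 genes typical of pituitary (Gh, Pomc, Prl, Cga), hypothalamus (Trh), several neuron types (Calb2) and choroid plexus (Ttr, Kcnj13, Enpp2, the last also made by oligodendrocytes), 1 point per control-vector library. The trained library eGFP.250 is highest for each of the 9, and eGFP.254 is second for the choroid plexus genes, as for Ttr with 15080.

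No gene passed limma at an adjusted p under 0.05 (0 of 12658, or 0%), and 379 genes (2.99%) had an unadjusted p under 0.05, 222 higher (1.75%) and 157 lower (1.24%) after training. The smallest adjusted p, 0.559, belonged to Egr2, and every other gene named here had 1.00. edgeR also called 0 genes (0%), with 418 (3.3%) at an unadjusted p under 0.05. DESeq2 called 7 (0.0553%): Egr2, Fos, Fosb, Arc, the transferrin gene Trf and Gh were higher, and Fam163b, which encodes a membrane protein, was lower. With 2 libraries a side, an exact permutation test of a single gene cannot go below p = 0.333. Both trained libraries lay above both untrained ones for 1828 genes (14.4%) and below them for 1801 (14.2%), and 6620 genes (52.3%) had a higher mean after training. The median difference over all tested genes was 0.01. The counts and medians of gene groups below are to be read against these shares, as no separate test was made of a group.

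Fast immediate early transcription factors had the highest median difference of the lists of cellular processes. Egr2, a zinc finger factor (GRCm38, chr10:67535475-67542188, plus strand), stood at 11.6 and 7.54 in the untrained libraries and at 82.7 and 61.7 in the trained ones. The groups were far apart beside the spread within each pair, and the difference was 2.80 (SE 0.38). DESeq2 gave 2.92 with an adjusted p of 1.24e-04. Fos, a subunit of the AP-1 factor (chr12:85473890-85477273, plus strand), stood at 37.8 and 15.5 before and at 131 and 103 after training. The trained pair lay close together and the untrained pair did not, and the difference was 2.21 (SE 0.41; DESeq2 adjusted p = 0.00876). Its relative Fosb (chr7:19302696-19310051, minus strand) stood at 43.6 and 36.4, then at 117 and 134. Here both pairs were tight, and the difference was 1.63 (SE 0.26; DESeq2 adjusted p = 0.0174). Without eGFP.250 the differences were 2.59 for Egr2, 2.04 for Fos and 1.73 for Fosb.

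RefSeq start regions of these 3 genes are printed here because they carry the largest differences of the fast factors, with Npas4, a neuron-specific early factor, and Zdbf2, an imprinted zinc finger gene among the effectors, added for contrast in level of response. Each runs 5′ to 3′ on the gene's strand from 250 bases before the start to 50 from it (build GRCm38.p6). Capitals mark TGACG on either strand (CGTCA when read on the opposite strand), the core of the cyclic AMP response element, and in Egr2 also a CArG box.
Egr2, chr10:67537619-67537918, plus strand: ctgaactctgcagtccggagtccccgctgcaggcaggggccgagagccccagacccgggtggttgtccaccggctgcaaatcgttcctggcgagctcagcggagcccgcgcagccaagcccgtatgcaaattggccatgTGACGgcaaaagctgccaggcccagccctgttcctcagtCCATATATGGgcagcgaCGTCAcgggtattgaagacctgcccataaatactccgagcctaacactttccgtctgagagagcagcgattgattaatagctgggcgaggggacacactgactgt
Fos, chr12:85473640-85473939, plus strand: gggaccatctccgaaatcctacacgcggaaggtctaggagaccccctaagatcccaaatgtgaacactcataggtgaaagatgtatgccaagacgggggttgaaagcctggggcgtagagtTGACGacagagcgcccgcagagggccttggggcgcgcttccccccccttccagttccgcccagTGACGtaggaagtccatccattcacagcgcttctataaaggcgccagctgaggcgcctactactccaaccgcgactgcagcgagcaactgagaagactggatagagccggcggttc
Fosb, chr7:19309996-19310295, minus strand: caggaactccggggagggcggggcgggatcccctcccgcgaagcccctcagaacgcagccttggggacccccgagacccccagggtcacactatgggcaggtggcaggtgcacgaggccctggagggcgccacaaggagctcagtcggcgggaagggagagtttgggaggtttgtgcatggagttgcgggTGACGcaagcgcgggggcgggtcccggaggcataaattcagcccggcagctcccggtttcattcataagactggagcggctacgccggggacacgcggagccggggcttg
Npas4, chr19:4989922-4990221, minus strand: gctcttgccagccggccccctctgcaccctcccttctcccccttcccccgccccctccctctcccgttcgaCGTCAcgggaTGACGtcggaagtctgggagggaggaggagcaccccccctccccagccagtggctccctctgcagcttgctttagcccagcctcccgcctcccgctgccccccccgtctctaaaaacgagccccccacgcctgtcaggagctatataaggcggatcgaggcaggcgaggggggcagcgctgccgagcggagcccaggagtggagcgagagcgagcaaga
Zdbf2, chr1:63273019-63273318, plus strand: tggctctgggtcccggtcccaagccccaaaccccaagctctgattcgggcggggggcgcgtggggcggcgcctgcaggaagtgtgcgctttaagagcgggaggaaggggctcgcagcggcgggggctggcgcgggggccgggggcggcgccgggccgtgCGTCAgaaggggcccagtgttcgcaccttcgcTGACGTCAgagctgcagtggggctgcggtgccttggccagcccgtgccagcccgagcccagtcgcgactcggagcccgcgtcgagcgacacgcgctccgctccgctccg
The Egr2 window holds 2 copies of TGACG and 1 CArG box. It was chosen from 5 windows of that gene for its matches, and the most upstream of the 5 holds neither. Fos and Npas4 hold 2 copies each and Fosb holds 1. Zdbf2 holds 3, a pair of which overlap as the full palindrome TGACGTCA, and its other window holds none.

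A window was found for 21 of the 26 tested fast factors, and 15 of them (71.4%) held TGACG on either strand, against 3463 of 9739 tested genes with a window (35.6%). Among 20 effectors with a window, 13 (65.0%) held it. The full palindrome TGACGTCA, which counts as 2 overlapping copies of the core, was in 1 of the fast factors (Btg2) and in 5 effectors (25.0%), among them Zdbf2 and Plk2, against 3.68% of all. The CArG box was in Egr2 alone of the fast factors with a window, in no effector with one, and in 1.52% of all. The windows reach only 250 bases before the start, so boxes farther out were not read. Some genes have several windows. Over the first listed window alone the shares with TGACG were 66.7% of fast factors, 55.0% of effectors and 32.0% of all genes. Over all windows, TGACG was in 3 of 14 dentate granule markers (21.4%) and 4 of 18 glucocorticoid response genes (22.2%). It was in 3 of 13 oligodendrocyte markers (23.1%) and 3 of 9 MAP kinase feedback genes (33.3%). Delayed activity genes held it in 6 of 14 (42.9%). No window was found for Arc, Egr1 or Ctgf. A match describes the letters and shows no binding.

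The other early factors differed less. Egr1, a close relative of Egr2, stood at 1438 and 706, then at 1919 and 2126. The groups did not overlap, but the untrained pair differed by about as much as the groups, and the difference of 1.00 (SE 0.32) was 0.49 without eGFP.268. Junb (91.3 and 54.1, then 142 and 126) and the zinc finger factor Klf4 (21.5 and 17.3, then 34.6 and 39.2) differed by 0.92 and 0.90. The orphan nuclear receptor genes were also higher in both trained libraries, Nr4a2 by 0.77 (340 and 263, then 481 and 546), Nr4a1 by 0.69 and Nr4a3 by 0.62. Nfil3, a repressor linked to circadian timing, differed by 0.77, and the AP-1 gene Fosl2 by 0.60. Npas4 stood at 66.3 and 51.9, then at 78.6 and 84.7, a difference of 0.47 (SE 0.27). Without eGFP.268, the lower untrained library of most of these genes, Junb, Nr4a1 and Npas4 differed by 0.55, 0.18 and 0.29. Not every member stood clear of the untrained level. Jun, 1 of 3 factors with a lower mean, overlapped between the groups (736 and 510, then 423 and 681), with a difference of -0.19 that was 0.15 without eGFP.250. Egr3 was higher in both trained libraries by a small margin (578 and 565, then 699 and 614; 0.20). Egr4 overlapped, since eGFP.254 at 76.8 lay between the trained libraries at 73.4 and 78.5, and its difference of 0.91 came from 20.4 in eGFP.268.

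Of the 30 fast factors, 26 reached the minimum level, 23 of these were higher on average after training, and 15 (57.7%, against 14.4% of all genes) had both trained libraries above both untrained ones. None had the reverse. The 4 below the minimum level had reads, and 2 of them also had both trained libraries higher. The median difference was 0.60, 0.72 without eGFP.250 and 0.46 without eGFP.268. In that comparison of 1 trained with 2 untrained libraries, eGFP.266 lay above both untrained libraries for 19 of 26 factors, against 31.9% of all genes.

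**Figure D2:**
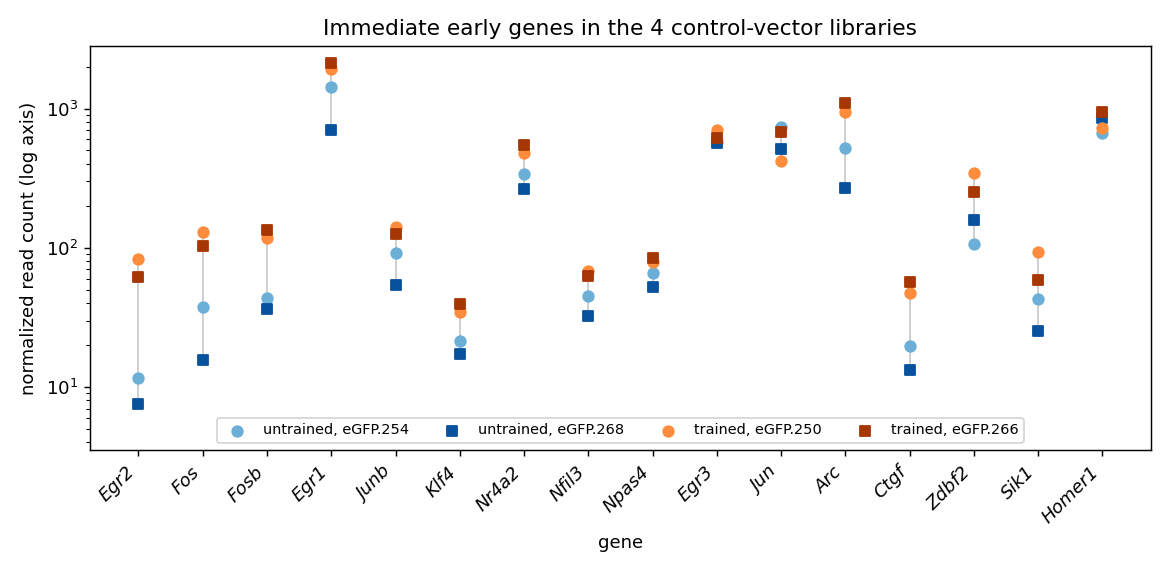
Normalized read count (log axis) of 11 fast transcription factor genes (Egr2 to Jun) and 5 effector genes (Arc to Homer1) in the untrained (blue) and trained (orange and brown) control-vector libraries, 1 point per library, joined by a grey line for each gene. Egr2, Fos, Fosb, Arc and Ctgf show wide gaps between the groups, and Jun and Homer1 show overlap.

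Effectors of the early response followed. Arc, which regulates the trafficking of synaptic glutamate receptors (chr15:74669083-74672570, minus strand), stood at 523 and 271 before and at 951 and 1103 after training. The difference was 1.44 (SE 0.31; DESeq2 adjusted p = 0.0286), 1.55 without eGFP.250 and 0.97 without eGFP.268. Ctgf, a secreted matrix protein gene, stood at 19.8 and 13.3, then at 47.1 and 56.5, which gave 1.61 (SE 0.36). Zdbf2 stood at 106 and 158, then at 347 and 253.1, which gave 1.18 (SE 0.28). In all 3 genes the trained libraries lay clear of the untrained ones. Sik1, a salt-inducible kinase that feeds back on CREB coactivators, differed by 1.14 (43.0 and 25.3, then 92.6 and 58.8), and Tiparp, an ADP-ribosyltransferase gene, by 0.92. The ubiquitin ligase gene Fbxo33 and the stress gene Gadd45b differed by 0.63 and 0.80 without overlap. Homer1, which encodes a postsynaptic scaffold with a short activity-induced form, overlapped (669 and 860, then 720 and 941), and gene-level counts do not separate its forms. Plk2, a kinase that weakens active synapses, was the only effector lower in both trained libraries (1249 and 1282, then 1125 and 1130; -0.17). Of 28 effectors, 25 reached the minimum level, 22 of these were higher on average, and 14 (56%, against 14.4% of all genes) had no overlap. The median was 0.48, or 0.37 without eGFP.250.

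Genes that damp the MAP kinase signal, which lies upstream of the early factors, were mixed. The phosphatase gene Dusp5 stood at 25.6 and 12.0, then at 26.9 and 74.2, and Dusp1 at 39.5 and 15.1, then at 41.9 and 41.1. For both, the lower trained library barely exceeded the higher untrained one, so the differences of 1.30 and 0.74 were 0.78 and 0.07 without eGFP.268. Spry4 and Dusp6 differed by 0.50 and 0.41 and the inhibitor gene Spred3 by -0.49. Of 12 tested members 5 (41.7%, against 14.4% of all genes) were higher, all without overlap. The other 7 were lower, 2 of them without overlap (16.7% of the 12, against 14.2% of all genes). The median of -0.06 turned positive without eGFP.250 (0.21, with 7 of 12 higher) and without eGFP.254 (0.15), so the list has no firm direction. The delayed activity genes had a median of 0.07 (0.08 without eGFP.250 and -0.05 without eGFP.268), with 12 of 23 higher. Both trained libraries were higher for 5 (21.7%, against 14.4% of all genes) and lower for 3 (13%, against 14.2%). Fam46a, which encodes a poly(A) polymerase, differed by 1.09 (48.9 and 35.9, then 118 and 68.9), the prohormone convertase gene Pcsk1 by 1.04 (24.4 and 43.9, then 80.1 and 58.8) and the clock gene Per2 by 0.45. The synaptic pentraxin gene Nptx2 differed by -0.29.

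Stress-hormone targets were checked because handling and a new arena release corticosterone, which acts through the glucocorticoid receptor. Sgk1, a kinase induced by that hormone (chr10:21882184-21999903, plus strand), stood at 84.3 and 156 before and at 426 and 258 after training, a difference of 1.52 (SE 0.35; DESeq2 adjusted p = 0.0503). The groups did not overlap, though both pairs were spread. Pdk4, which inhibits pyruvate dehydrogenase, was tight in both groups (33.7 and 28.8, then 65.2 and 65.1; 1.04). The NF-kappa-B inhibitor gene Nfkbia (40.7 and 50.6, then 86.9 and 87.5; 0.93) also separated the groups. So did the syndecan gene Sdc4 (277 and 197, then 392 and 436; 0.82), though its untrained pair was spread and its difference was 0.58 without eGFP.268. Of 21 tested members, 12 had higher means (57.1%, against 52.3% of all genes) and 9 had lower means. Both trained libraries were higher for 11 (52.4%, against 14.4% of all genes) and lower for 2 (9.52%, against 14.2%). The metallothionein gene Mt1, another target, was among the latter (1321 and 889, then 850 and 385; -0.92). Its neighbour Mt2 was high in 1 library of each group (426 and 1003, then 1117 and 168) and had no common direction. The list's median was 0.25, and 0.28 without eGFP.250. Sgk1 is also made by oligodendrocytes, whose markers had higher values after training (median difference 0.67), and their part in its difference was not tested.

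Oligodendrocyte genes, which serve myelin, had the highest median of the cell type marker lists once eGFP.250 was left out. Trf (chr9:103204001-103230444, minus strand) stood at 484 and 406, then at 1022 and 877, a difference of 1.09 (SE 0.23; DESeq2 adjusted p = 0.0291). Ermn, a cytoskeletal myelin gene, stood at 437 and 345, then at 609 and 879, a difference of 0.91 (SE 0.26). Both genes separated the groups fully, as did Ugt8a (0.83), which makes the lipid galactocerebroside. Of 21 markers 20 were higher, the exception being the lineage factor gene Olig1 (-0.30), and 13 (61.9%, against 14.4% of all genes) had no overlap. The median was 0.67, 0.89 without eGFP.250 and 0.38 without eGFP.268. Summed over the list, normalized read counts were 21080 and 13130, then 35490 and 29450, part of which was Enpp2 (2983 and 480, then 11910 and 1271), a gene that the choroid plexus shares. Erbb3, a receptor of the same lineage, was among the genes with the widest gap (18.6 and 14.6, then 38.3 and 41.1; 1.22). In bulk tissue, more cells of a type, or more white matter in the dissected piece, and more RNA per cell cannot be told apart.

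Granule and CA1 neuron markers had the lowest medians with all 4 libraries. General excitatory neuron markers had a median of -0.25, or -0.07 without eGFP.250. Of these, 5 of 13 (38.5%, against 14.2% of all genes) were lower without overlap. Among dentate granule markers, Plk5, a polo-like kinase gene (chr10:80356459-80365489, plus strand), stood at 66.3 and 36.8, then at 12.9 and 19.6, a difference of -1.57 (SE 0.41). Stxbp6, a regulator of vesicle fusion, stood at 1220 and 993, then at 539 and 621 (-0.93, SE 0.23). The guidance receptor gene Sema5a (930 and 1029, then 463 and 670; -0.81) and Pitpnm2 (-0.72) also had no overlap, while Prox1, which defines these cells, overlapped (1005 and 587, then 330 and 750; -0.63). Of 14 markers 13 were lower and 6 (42.9%, against 14.2% of all genes) had no overlap. The median of -0.63 depended on the library, being -0.18 without eGFP.250 and -1.05 without eGFP.266. Their summed counts were 8290 and 6591, then 3782 and 6423, lowest in eGFP.250, where the pituitary genes summed to 2058, and the part of outside tissue in this was not tested.
Among CA1 markers, Fibcd1, which encodes a membrane receptor for acetylated sugars (chr2:31813290-31846005, minus strand), stood at 223 and 279, then at 99.3 and 117 (-1.20, SE 0.24; DESeq2 adjusted p = 0.0811). Mpped1 (318 and 461, then 256 and 210; -0.72) and the heparan sulfate enzyme gene Ndst4 (170 and 172, then 97.2 and 122; -0.65) were also lower in both trained libraries. All 9 CA1 markers had lower means, 4 of them without overlap (44.4%, against 14.2% of all genes). The median was -0.42, or -0.49 without eGFP.250. Markers of CA3 and CA2 neurons had a median of 0.06 and those of astrocytes -0.05, or 0.12 and -0.09 without eGFP.250. Inhibitory neuron markers had a median of -0.12 that was -0.30 without eGFP.250 and 0.33 without eGFP.266, so the list has no firm direction. Library eGFP.266 lay below both untrained libraries for 15 of 22 markers, against 31.6% of all genes. Both trained libraries were lower for 3 (13.6%, against 14.2% of all genes).

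**Figure D3:**
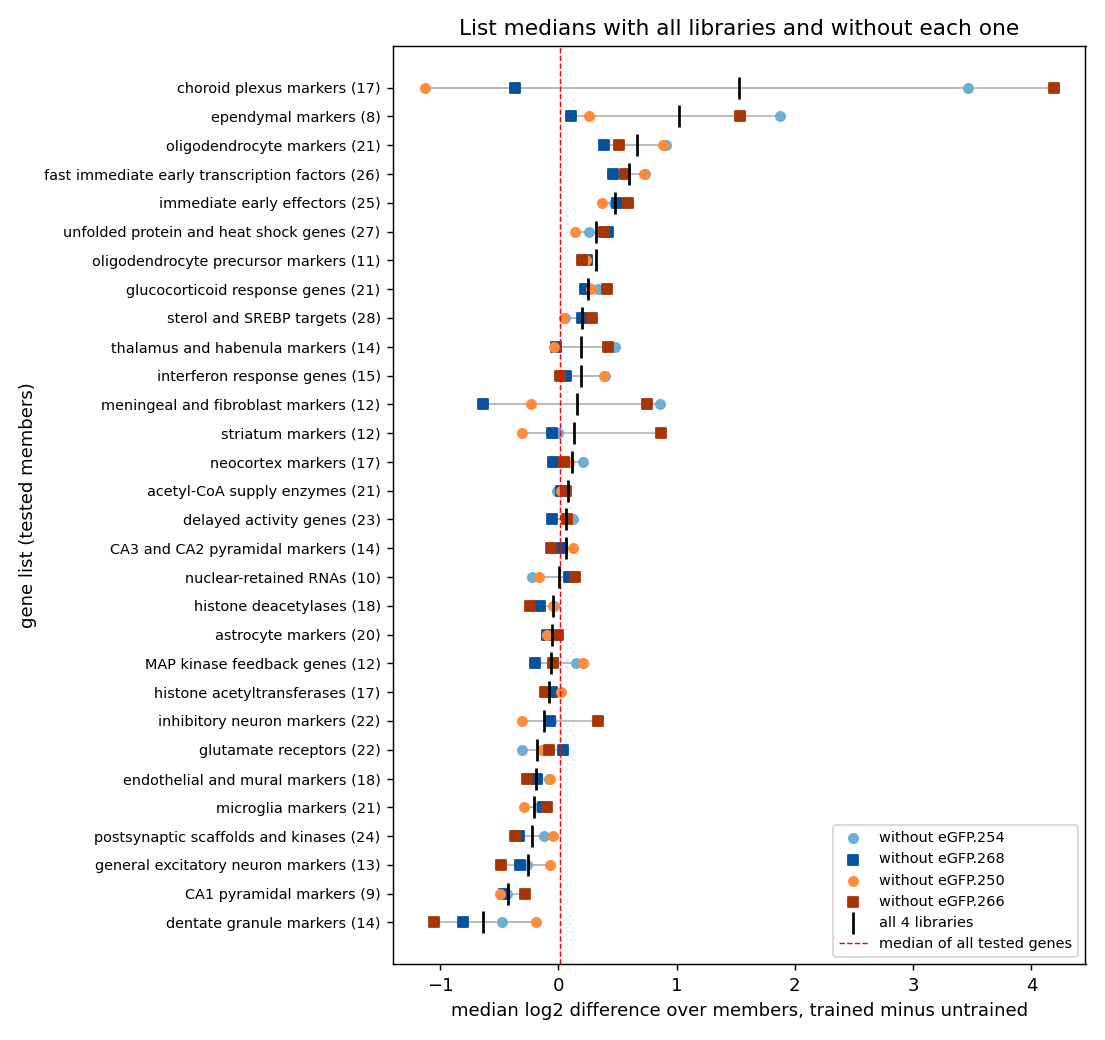
Median log2 difference, trained minus untrained, over the tested members of each gene list (members in brackets), with all 4 libraries (black bar) and without each library (coloured points, joined in grey), and the median of all tested genes as a dashed line. Choroid plexus markers move from 1.53 to -1.13 without eGFP.250, while the fast transcription factors stay between 0.46 and 0.73 and the oligodendrocyte markers between 0.38 and 0.91.

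Synaptic genes differed by small amounts. Among glutamate receptors, 14 of 22 had lower means, but 3 (13.6%) had both trained libraries lower, near the 14.2% of all genes. Their median of -0.18 was -0.14 without eGFP.250 and 0.04 without eGFP.268. Those 3 were Grik5, a kainate receptor subunit (972 and 1735, then 619 and 756; -0.92), the presynaptic receptor gene Grm2 (286 and 83.8, then 52.2 and 79.9; -1.25) and Gria1, a main AMPA receptor subunit (6662 and 6944, then 4680 and 5006; -0.49). The pairs of Gria1 were the tightest of these. Among postsynaptic scaffolds and kinases, 20 of 24 had lower means and 6 (25.0%, against 14.2% of all genes) were lower without overlap. Shank1 differed by -0.61 and the memory kinase gene Camk2a by -0.37 (29279 and 30463, then 24024 and 22074). The list's median was -0.22, or -0.05 without eGFP.250.

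Genes of acetyl-CoA supply and histone acetylation are the subject of the series. Acss2 (chr2:155517948-155585724, plus strand) stood at 58.2 and 82.0, then at 87.4 and 67.5. The groups overlapped, with a difference of 0.15 (SE 0.29). The knockdown libraries held 25.0 (KD.253) and 15.6 (KD.255) without training, and 25.6 (KD.249) and 57.7 (KD.251) with it. A single read was worth 15.6 in KD.255 and 2.88 in KD.251, so these 2 values rest on few reads. The value of KD.251 lies near the 58.2 of the control library eGFP.254. Of 21 acetyl-CoA supply enzymes 2 were higher and 2 lower without overlap (9.52% each, under the share of all genes), with a median of 0.08, or 0.03 without eGFP.250. Pdhb, a pyruvate dehydrogenase subunit gene, was lower in both trained libraries (446 and 424, then 337 and 249.2; -0.58). The 17 histone acetyltransferases had a median of -0.08, or 0.02 without eGFP.250. Among them 2 were higher and 2 lower without overlap (11.8% each, under the share of all genes). Of the 18 deacetylases 13 had lower means and 5 (27.8%, against 14.2% of all genes) were lower without overlap, with a median of -0.04, or -0.05 without eGFP.250. Acss2 shares its locus with Ggt7, Gss and an antisense gene on the opposite strand, and Junb, Dusp1, Ermn, Tiparp, Spred3, Glis3, Mid1, Kcnj13 and Shank1 also overlap a gene on the opposite strand. The strand setting of the counting is not given in the sources used here, so reads of such pairs may be mixed.

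The genes with the widest gap between the groups, among those with a mean of at least 25, included several outside these lists. Map3k19, a kinase gene, was almost the same within each pair (25.6 and 25.7, then 66.7 and 66.0; 1.34). The calcium-regulated phosphodiesterase gene Pde1c (33.1 and 45.2, then 91.5 and 88.5; 1.19) and the collagen gene Col12a1 (23.8 and 20.0, then 51.2 and 46.4; 1.12) were similar in pattern. Slc17a6, the glutamate transporter gene of thalamic and subicular neurons, stood at 52.9 and 23.1, then at 102 and 144 (1.76). That gene is a marker of neighbouring regions. The thalamus and habenula list as a whole had a median of 0.19, or -0.03 without eGFP.250, and its part in the result was not tested.
On the lower side stood Glis3, a zinc finger factor gene (176 and 164, then 78.1 and 83.2; -1.06), Fam163b (1965 and 1105, then 391 and 673; -1.52; DESeq2 adjusted p = 0.0139), the synaptotagmin gene Syt17 (153 and 210, then 74.5 and 87.5; -1.14), and Mal2, a vesicle transport gene (1207 and 1217, then 749 and 667; -0.78). Mid1, Syna and Lmo1 differed by -1.19, -1.18 and -0.85, and the uncharacterised A230072C01Rik by -0.98. Each of these 8 had both trained libraries below both untrained ones, which follows from their choice by the gap.

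**Figure D4:**
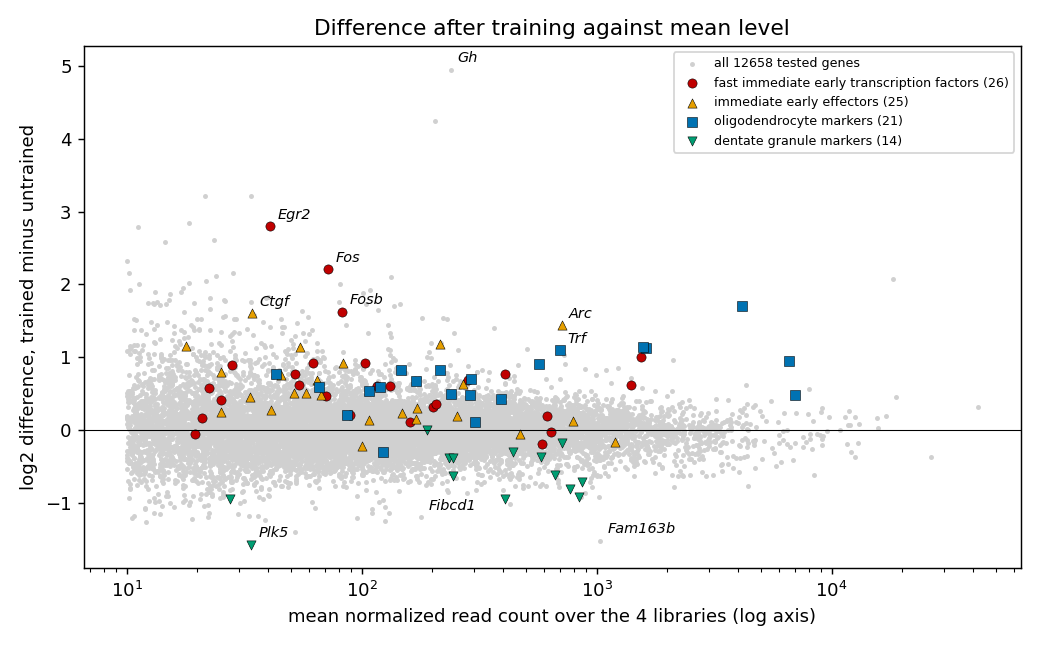
Log2 difference, trained minus untrained, of the 12658 tested genes (grey) against their mean normalized read count (log axis), with the members of 4 gene lists in colour and some genes named. Egr2 at 2.80, Fos at 2.21 and Fosb at 1.63 lie above most genes of their level, and Gh, with reads only in eGFP.250, lies highest.

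The knockdown-vector libraries give the same contrast with no library in common, though KD.255 (untrained, 272456 reads in genes) and KD.251 (trained, 1484318) were shallow. There the training difference was 0.09 (SE 0.54) for Egr2, 0.13 (SE 0.43) for Fos, 0.77 (SE 0.33) for Fosb and 0.45 (SE 0.31) for Arc. The untrained knockdown libraries already held values near those of trained control libraries, 68.5 and 109 for Egr2, 87.7 and 140 for Fos and 920 and 902 for Arc. Ctgf stood between 15.6 and 17.8 in all 4 knockdown libraries. In KD.255 a single read was worth 15.6, so its values rest on few reads. With this vector limma passed 0 of 12681 genes (0%) and 568 (4.48%) had an unadjusted p under 0.05.
The difference between the training responses, control minus knockdown, was 2.71 (SE 0.77) for Egr2, 2.08 (SE 0.61) for Fos, 0.99 (SE 0.43) for Arc and 1.61 (SE 0.70) for Ctgf, with unadjusted p of 0.00632, 0.00784, 0.0473 and 0.0470. For Fosb it was 0.86 (SE 0.47), with an unadjusted limma p of 0.0981. These genes were picked out for their control-vector differences, which enter this difference, so the unadjusted p-values are no separate test of them. None passed adjustment in limma (adjusted p = 1.00), where 0 of 12681 genes (0%) passed and 112 (0.883%) had an unadjusted p under 0.05, and edgeR called 0 as well. Egr3 went the other way, with a training difference of 0.88 (SE 0.21) with the knockdown vector against 0.20 with the control vector and a difference of -0.68 (SE 0.30, unadjusted p = 0.0479; limma adjusted p = 1.00). The fast factors had a median training difference of 0.23 with the knockdown vector (19 of 26 higher), against 0.60 with the control vector. The effectors were closer, at 0.41 (21 of 25 higher) against 0.48.
Dentate granule markers stood on opposite sides, with a median of 0.66 against -0.63. The latter was -0.18 without eGFP.250. Markers of CA3 and CA2 neurons had a median of 0.65 with the knockdown vector (13 of 14 higher), against 0.06 with the control vector. Some lists stood on the same side with both vectors. CA1 markers had -0.44 with the knockdown vector (1 of 9 higher) against -0.42, and oligodendrocyte markers 0.30 (13 of 21 higher) against 0.67. Glucocorticoid response genes had 0.30 (18 of 21 higher) against 0.25. For Plk5, Stxbp6 and Sema5a the difference between the responses was -2.34 (SE 0.82), -1.39 (SE 0.49) and -1.34 (SE 0.42), with unadjusted p of 0.0191, 0.0196 and 0.0102 and an adjusted p of 1.00 in limma. Plk5, Stxbp6 and Sema5a were also picked out for their control-vector differences, which enter these values. In KD.255 Plk5 stood at 15.6, the worth of a single read.

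**Figure D5:**
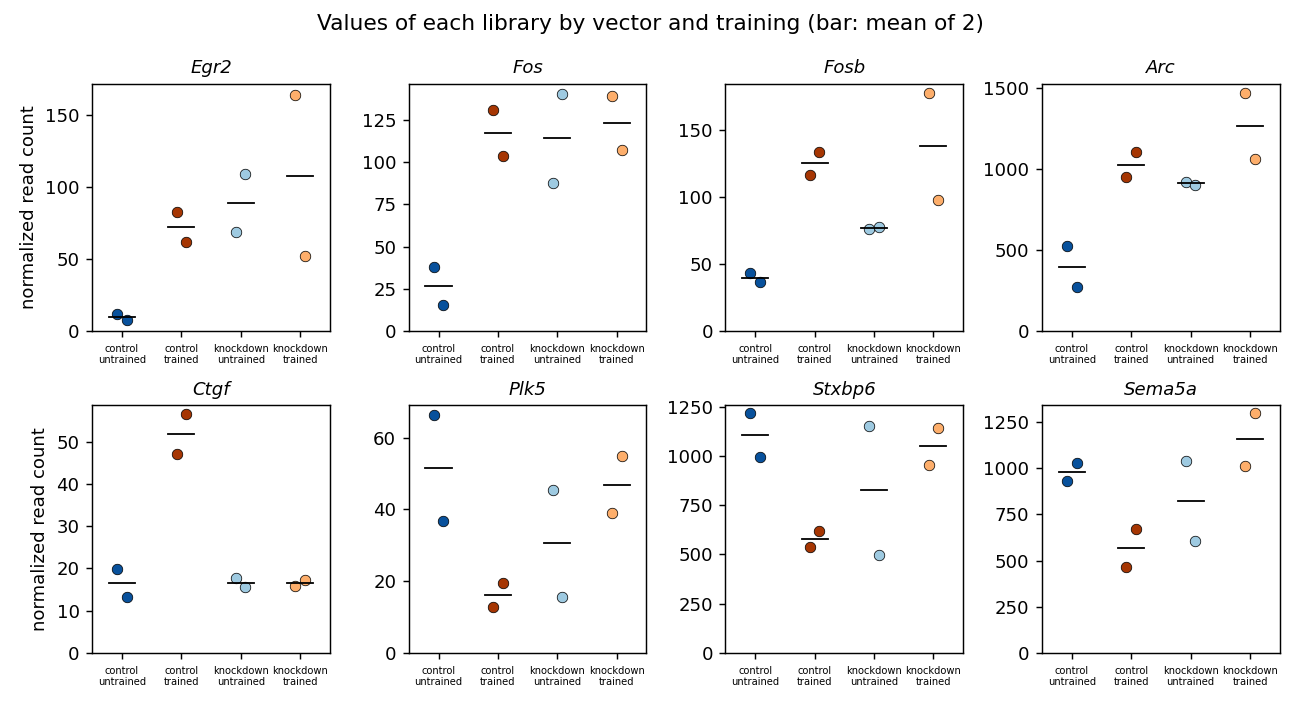
Normalized read count (linear axis from 0) of 8 genes in each of the 8 libraries, by vector and training, with a bar at the mean of each pair. For Egr2, Fos and Arc the untrained control libraries are the low group of the 4, and for Ctgf the trained control libraries are the high group.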

How the data were processed

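Per the labels' protocols, polyadenylated RNA was made into ScriptSeq v2 libraries and sequenced on a NextSeq 500. Per the submitters' processing notes, the tools were bcl2fastq 02.14.01.07, STAR 2.3.0, HTSeq 0.6.1, DESeq and bedtools, with build mm10 (annotation not given in the sources used here). Each file value, as the authors deposited it, is a normalized signal of 1 gene in 1 library. All of these (100%) were whole multiples of 1 value per library (relative tolerance 1e-06), which gave back the reads for edgeR 4.0.16 and DESeq2 1.42.0. Of 24503 entries, 5 summary entries were left out; they held 16.4% to 20.3% (reads in no gene), 10.6% to 13.8% (not unique), 2.76% to 7.86% (not aligned) and 0.379% to 0.424% (ambiguous) of a library's reads. Replicates differed by more than sampling noise (chi-square per degree of freedom 28.1 and 38.5).

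Differences were tested on log2(signal + 1) of the 4 libraries in limma 3.58.1 under R 4.3.3, with the trend option, 2 residual and 7.02 prior degrees of freedom and Benjamini-Hochberg adjustment, threshold 0.05. The pseudocount shrinks differences of genes with few reads. Alternatives were 2 other scalings, 2 pseudocounts, 2 filters, each library left out, all 8 libraries, a term for the number set, edgeR and DESeq2. The scripts were tested on simulated data. Coordinates come from GENCODE vM21 (GRCm38).

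The comparison, its gene lists (32, and 3 added later) and tests were chosen with earlier results of these data known. Named genes were those called by any tool (up to 10 a direction), the 10 a direction with the widest gap at a mean of at least 25, early, effector and feedback genes at that level, and up to 4 members a direction of other lists by size of the limma statistic; Prox1, Ttr, Enpp2 and the genes called only without a library were named after their values were seen. Some genes that fall under these rules are not reported here.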

Additional observations from a re-analysis of the deposited data

How the results depend on the processing

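No gene passed limma under either other scaling, either pseudocount, either filter, with all 8 libraries or with the set of library numbers as a term (Egr2 adjusted p = 0.101), nor with edgeR, while DESeq2 called 7 and edgeR with that term, added after the data were seen, called 1 (Gh). Leaving out 1 library gave between 0 (eGFP.268) and 236 genes (eGFP.266; 222 higher, 14 lower, led by Ttr, Pomc and Gh), with 6 without eGFP.254 and 15 without eGFP.250. In those fits the lone library is assumed to vary like the other group, 1 residual degree of freedom remains, and without eGFP.250 or eGFP.266 every gene took the variance of the trend. Without 1 library, the median of the fast factors ranged from 0.46 to 0.73 and that of the effectors from 0.37 to 0.59. Differences that changed sign, or fell to 0 (Gh and Prl), ranged as follows without 1 library: Egr4 from -0.0162 to 1.85, Jun from -0.53 to 0.15, Homer1 from -0.0757 to 0.31, Mt2 from -1.95 to 0.77, Olig1 from -0.63 to 0.0264, Gh from 0 to 9.90, Prl from 0 to 6.44, Cga from -0.33 to 6.76, Ttr from -1.34 to 5.48, Kcnj13 from -1.17 to 5.00, Calb2 from -0.0437 to 2.94, Acss2 from -0.0945 to 0.395, Dcn from -1.90 to 1.39 and Rps13 from -1.43 to 0.0844. Dcn was also positive in edgeR and DESeq2 (0.17 each). The cause of these changes was not tested. No other gene whose difference is given changed sign under any of these settings. The difference between the training responses also had 0 genes in edgeR and without both shallow knockdown libraries. No paired analysis was possible because the columns carry no replicate number of the labels; the term for the set of library numbers, which puts 1 trained and 1 untrained library in each set, acts as a block, but no label says that a set shares anything. The scalings moved the median of all genes by at most 0.0107. Depth limits genes near 10 normalized read counts, where 1 read was worth up to 0.582.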

Other observations

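Chaperones and folding enzymes of the unfolded protein and heat shock response, which the comparisons above leave out, were mostly higher after training. Of 27 tested members 25 had higher means and 13 (48.1%, against 14.4% of all genes) had both trained libraries above both untrained ones. Creld2 (76.8 and 53.7, then 125 and 90.9 normalized read counts; log2 difference 0.72), the disulfide isomerase gene Pdia4 (240 and 198, then 395 and 285; 0.62), the heat shock cochaperone gene Dnajb1 (83.7 and 103, then 149 and 136; 0.61) and Hsp90aa1 (2625 and 4279, then 5875 and 4476; 0.61) were among them, and none passed limma (adjusted p = 1.00). The median was 0.32, and 0.15 without eGFP.250.

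Sterol synthesis genes had 22 of 28 higher means and 10 (35.7%, against 14.4% of all genes) higher without overlap. Idi1, an isoprenoid enzyme gene, stood at 35.5 and 30.6, then at 55.8 and 79.4 (0.99). The list's median of 0.20 was 0.05 without eGFP.250. Interferon response genes were near the minimum level, with 15 of 28 tested and 3 (20.0%, against 14.4% of all genes) higher without overlap. Genes of the pineal gland, listed after the values were seen, summed to 57.6 in the untrained library eGFP.254 and to between 9.57 and 12.4 in the other 3.

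Setting a library aside left sets of genes that passed limma. Without eGFP.254 there were 6, all higher: Fos, Egr2, Arc, Slc17a6, Tshz2 and Cdr2. Without eGFP.250 there were 15, of which 9 were higher (Fos, Egr2, Fosb, Arc, Dusp5, Slc17a6, Tshz2 and the myelin genes Mal and Mobp) and 6 lower (Mt1, Mt2, Dcn, Cox8a, Cdk5r2 and Rps13). Mal stood at 1218 and 727, then at 1490 and 2882, and Mobp at 1294 and 736, then at 1553 and 2930, so eGFP.266 held the highest level of both. Tshz2 stood at 386 and 86.5, then at 377 and 620, and Dcn, a fibroblast gene, at 69.8 and 303, then at 384 and 38.3, and both overlapped between the groups.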
